A study of Saccharomyces cerevisiae with 12 samples.

Results

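The comparison described here sets glucose-limited chemostat cultures of the yeast strain CEN.PK 113-7D against aerobic batch cultures of the same strain. It covers 6 of the 12 arrays of the series, 3 per culture, and all 5716 probe sets of the array were kept. The other 6 arrays hold a second strain, YSBN2, in the same culture types, and entered the fit so that all groups share an estimate of the spread. CEN.PK 113-7D is a laboratory strain of Saccharomyces cerevisiae that the labels call prototrophic, with mating type a, and it carries no deletion or tag by those labels. Chemostat cultures of it received a feed with 7.5 g/L glucose plus 0.3 g/L ethanol and were diluted at 0.1 per h. Batch cultures of it began with 30 g/L glucose. All ran with aeration at 30 °C and pH 5 in 4 L reactors. The replicates are called biological in the labels, 1 array each, and each holds RNA of a whole culture, so that fewer cells of a kind and less RNA per cell cannot be told apart. The glucose left in the batch broth at harvest and the growth phase at that time are not stated in the labels. Growth rate, glucose level, ethanol in the feed and culture type differ together between the groups, and their parts in any difference cannot be told apart.

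Yeast with plenty of glucose ferments most of it to ethanol even in air, and represses genes for respiration, for other carbon sources and for reserve carbohydrates. The repression runs through the hexokinase Hxk2, the Mig1 family of repressors and the protein kinase Snf1, which releases it when glucose runs low. In a glucose-limited chemostat the sugar is kept scarce, growth is set by the feed, and the cells respire. Growth rate also sets the demand for ribosomes, while protein kinase A and the stress factors Msn2 and Msn4 tie growth to stress protection and reserves.

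Values were read as log2 signals, so that a difference of 1 is a 2-fold change, and all differences are chemostat minus batch with the standard error of the fit. A probe set is said to have risen, fallen or been called where its adjusted p was under 0.05. Array medians were 11.28 to 11.37 in the chemostat and 11.02 to 11.06 in batch. Between 8.5% and 9.9% of the probe sets of a chemostat array lay under 6, against 12.4% to 14.3% on a batch array. Values below 6 carry little information on level, and the lowest ones gather near 2. Replicate arrays correlated across probe sets at 0.990 to 0.996 in the chemostat and 0.985 to 0.996 in batch. Of the chemostat arrays the first had 41 probe sets that lay 2 log2 units or more off its 2 partners, all of them lower, the second had 2, and the third had 22, all higher. Of the batch arrays the first had 77, all lower, the second 3, and the third 20. For probe sets with mean levels of 4 to 8 the first array lay below its partners in both cultures, by a median of 0.59 in the chemostat and 0.49 in batch, so low values in replicate 1 recur below. The mating type on the label was checked with markers, of which those of alpha cells were mixed. Of the genes specific to a cells, STE6, BAR1, MFA1, MFA2 and AGA2 read between 10.52 and 15.12 on all 6 arrays. ASG7, also specific to a cells, read 4.41 to 8.03. The pheromone receptor gene of a cells, STE2, read 12.84, 12.90 and 13.18 in the chemostat and 14.29, 14.26 and 14.33 in batch, while MF(ALPHA)1, a pheromone gene of alpha cells, read 3.92, 3.91 and 4.47 against 3.80, 2.29 and 3.56, near the floor in both, as was MF(ALPHA)2. But 2 of the 4 genes specific to alpha cells, STE3 and SAG1, lay between 8.81 and 9.78 on the chemostat arrays.

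Of the 5716 probe sets 3207 (56.1%) were called, of which 1936 (33.9% of all) rose in the chemostat and 1271 (22.2%) fell. Counted by gene, with the brightest probe set of each, 33.4% of 5449 genes rose and 22.3% fell. On 3913 probe sets (68.5%) the 3 chemostat arrays did not overlap the 3 batch arrays, with 39.9% of all probe sets above batch on every array and 28.6% below. Changes of at least 2-fold were called upward on 1107 probe sets (19.4%) and downward on 446 (7.8%). The median difference was 0.09, with 1 probe set in 10 above 2.03 and 1 in 10 under -0.92. These shares are the background for each list below, where the call rate is high in any group of genes. Setting the arrays to a common median moved the median of all probe sets by -0.28 and left 40.4% of the calls upward, against 60.4% of the calls with the values as deposited. No probe set called under both settings changed its sign.

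**Figure D1:**
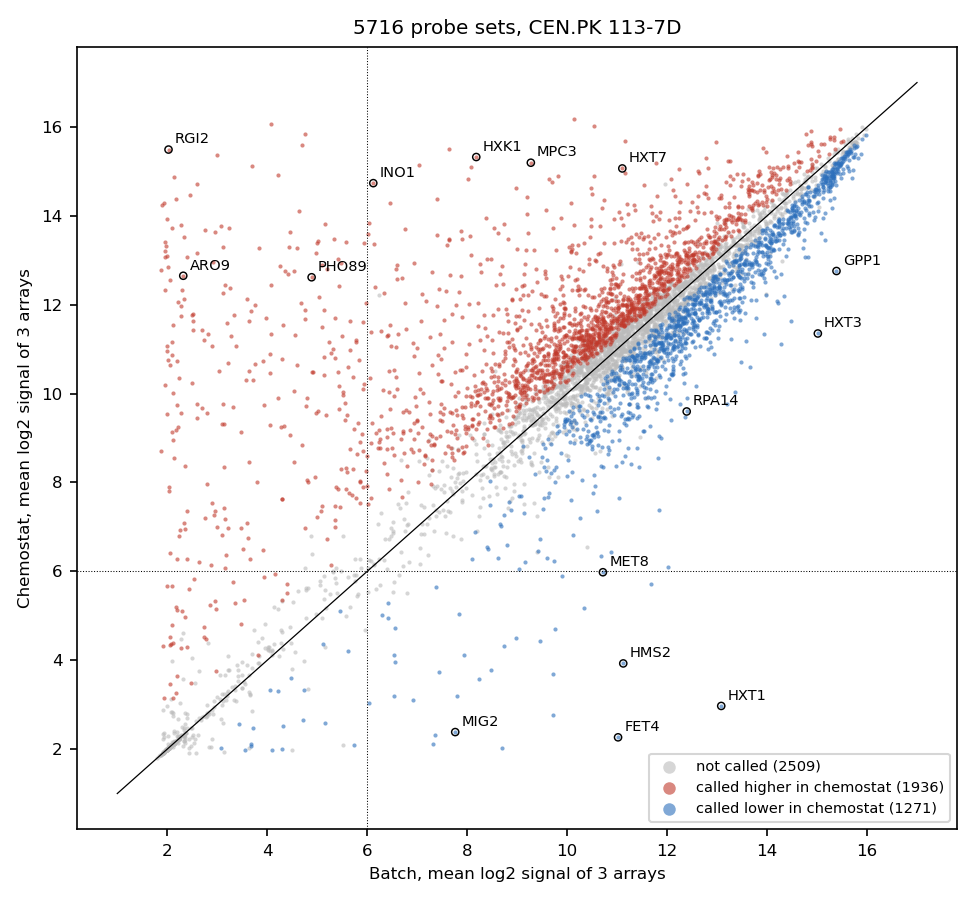
Mean log2 signal in the chemostat (vertical axis) against batch (horizontal axis) for 5716 probe sets, 3 arrays each; red and blue points are called higher or lower in the chemostat, grey points are not called, and dotted lines mark 6. The large rises start from batch values near 2, while most genes lie within a narrow band and 192 probe sets are under 6 on every batch array but at 6 or more on every chemostat array, against 21 the other way.

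The plot of chemostat against batch means shows where the size of a change can be read. A gene near the floor in batch has only a lower limit to its rise. The 12 largest rises, headed by RGI2 and ending with POX1, the acyl-CoA oxidase of fatty acid oxidation (11.50 ± 0.12), all began there. HXT1 was the single probe set at 12 or above on every batch array and under 6 on every chemostat array, against 52 in the other direction. For genes with means of at least 8 in both cultures the change is measured on both sides. Among these HXK1, the hexokinase of non-glucose growth, had the largest difference. It read 15.27, 15.32 and 15.39 in the chemostat and 6.11, 9.18 and 9.26 in batch, a difference of 7.14 ± 0.69 or 141-fold (adjusted p = 2e-05). The chemostat arrays lay close together, and the first batch array was far below its partners. Without that array HXK1 rose by 6.10, less than MSC1 (7.11).

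MSC1, named for meiotic sister chromatid recombination, rose by 7.02 ± 0.23 over all arrays. MDH2, the cytosolic malate dehydrogenase of gluconeogenesis, read 14.65, 14.84 and 14.97 in the chemostat and 6.29, 8.81 and 8.95 in batch (6.80 ± 0.60), again with a low first batch array. The small heat shock gene HSP26 reached 16.19, 16.20 and 16.15 in the chemostat, at the upper end of the array's range, and 9.29, 10.31 and 10.79 in batch. The remaining large rises covered MPC3, SSA3, GLC3, ETR1, HSP12, YRO2, ACS1 and TSL1, from 5.92 ± 0.65 down to 5.18 ± 0.44. ETR1 encodes an enoyl reductase of mitochondrial fatty acid synthesis. Its batch arrays spread over 8.90, 8.50 and 6.77, with 13.34, 13.62 and 13.67 in the chemostat.

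The falls measured on both sides were smaller. HXT3, a low-affinity glucose transporter gene, led them and read 11.77, 11.07 and 11.22 in the chemostat against 15.06, 15.01 and 14.98 in batch, 12.7-fold lower. YAH1, the ferredoxin of iron-sulfur cluster assembly, differed by -3.44 ± 0.66, with chemostat arrays at 8.40, 10.68 and 10.21. The serine hydrolase gene FSH1 fell by 3.32 ± 0.29, the nucleolar gene SRP40 fell by 3.27 ± 0.48 and the malic enzyme gene MAE1 fell by 3.16 ± 0.38. MKC7 (an aspartyl protease of the cell surface), EEB1 (an ester synthase), TOS6, SST2 (a regulator of pheromone signalling), YJL213W, UTR2 (a cell wall transglycosylase) and RPA14 (RNA polymerase I) fell, with differences of -3.09 to -2.79. TOS6 had the largest error of the 12 (-2.88 ± 0.88, adjusted p = 0.019). Chemostat arrays that do not overlap the batch arrays were a condition of both sets of 12.

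**Figure D2:**
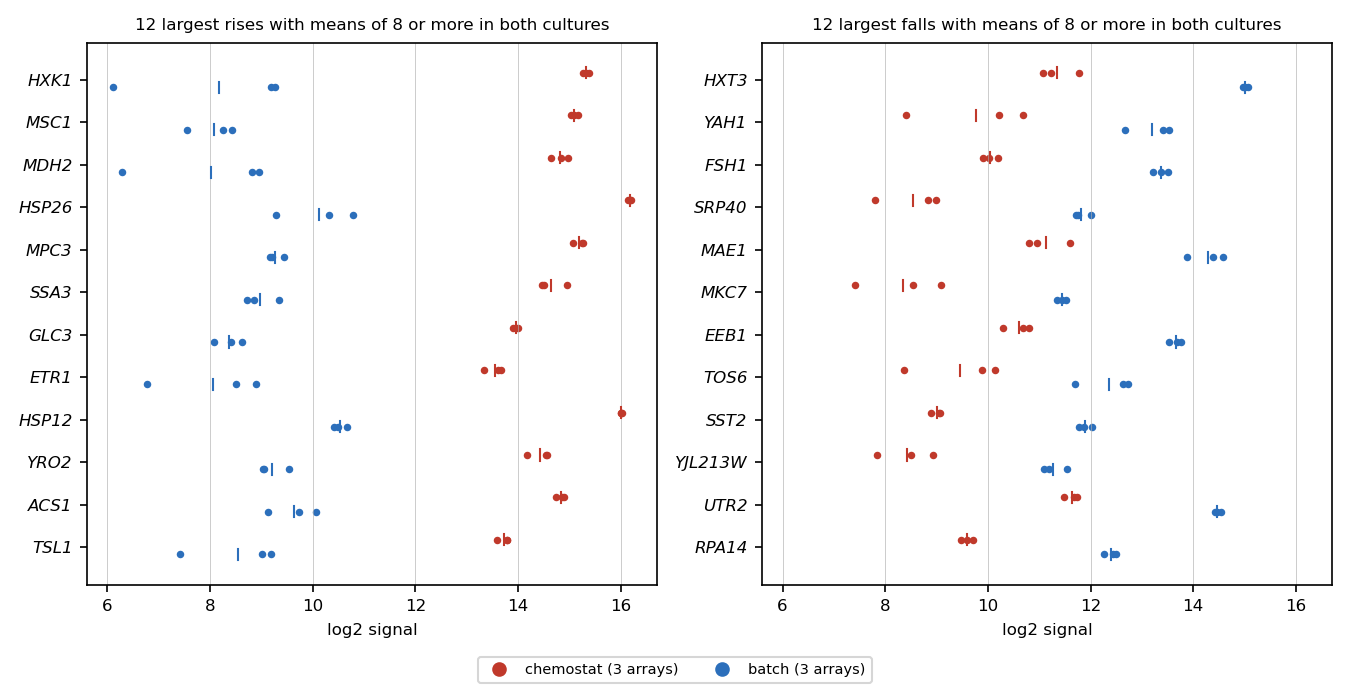
Log2 signal on each array for the 12 largest rises (left) and 12 largest falls (right) among genes with means of 8 or more in both cultures; red points are the 3 chemostat arrays, blue points the 3 batch arrays, and ticks mark the means. HXK1, MDH2 and TSL1 show 1 batch array well below the other two, while HSP12 and GLC3 hold tight groups about 5.49 and 5.59 apart.

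Among the falls that ended near or below 6 in the chemostat, HMS2, a gene with similarity to heat shock factors, read 3.31, 4.43 and 4.05 in the chemostat and 10.36, 11.58 and 11.43 in batch. The aldehyde reductase gene ARI1 read 4.61, 7.20 and 6.51 against 11.77, 12.00 and 12.31. OPT1, a transporter gene for peptides and glutathione, read 2.12, 2.74 and 3.45 in the chemostat and 9.49, 9.99 and 9.68 in batch, and OPT2, of the same family, read 2.07, 2.06 and 1.96 against 8.36, 8.45 and 9.29. The groups were far apart for all 4 genes. The cell wall sensor gene WSC4 fell by 5.17 ± 0.57, COS12 fell by 5.05 ± 0.31 and YDL241W fell by 5.96 ± 0.38. Where the chemostat value is near the floor the fall is a lower limit, and with values under 6 raised to 6 HMS2 differed by -5.12 and ARI1 by -5.46, both called.

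At the point of glucose entry a high-affinity transporter gene rose, low-affinity ones fell, and the sensor genes changed too. Of 15 hexose transporter genes measured 3 rose, 2 fell and 10 were not called, with chemostat means under 6 for 10 of the 15. HXT5 had the largest rise, with 13.99, 13.98 and 13.79 in the chemostat against 1.99, 1.98 and 1.98 in batch. As it began at the floor, its rise is a lower limit. HXT7, a high-affinity transporter, read 15.24, 14.93 and 15.03 in the chemostat and 11.13, 11.02 and 11.17 in batch, a 15.6-fold rise. Its probe set may also read the near-identical HXT6, which had none of its own here. HXT2, of moderate affinity, read 14.85, 14.69 and 14.63 in the chemostat against 11.89, 12.13 and 11.84 in batch, and HXT4 read 12.35, 12.27 and 12.11 against 14.02, 13.97 and 13.95. Neither set of arrays overlapped, yet neither gene was called in the 12-array fit (adjusted p = 0.3 and 0.18), in which their YSBN2 batch arrays spread with SDs of 5.66 and 2.64. In a fit on the 6 CEN.PK 113-7D arrays alone both were called, with adjusted p of 2.4e-05 and 4.8e-05.

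The sensor of low glucose, SNF3, read 10.92, 11.53 and 11.43 in the chemostat and 5.63, 6.13 and 7.45 in batch (4.89 ± 0.47). RGT2, the sensor of high glucose, rose by only 0.63 ± 0.22 (adjusted p = 0.032, but 0.087 when all 12 arrays were blocked by replicate number within strain, and 0.0098 with that block over the 6 arrays alone), and differed by -0.08 after quantile normalization. MTH1 and STD1, the paired cofactors that the sensors send for degradation so that the repressor Rgt1 lets go of the transporter genes, moved in opposite directions. MTH1 read 11.52, 11.66 and 11.64 in the chemostat and 5.68, 6.08 and 5.98 in batch. STD1 read 9.06, 9.12 and 9.32 against 11.52, 11.50 and 11.52, a difference of -2.35 ± 0.23. In all, 4 of the 8 genes of sensing and the Rgt1 pathway rose and 2 fell, and the list median of 0.41 was -0.03 after quantile normalization.

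All 4 genes of hexose phosphorylation were called. GLK1, the glucokinase, read 14.73, 15.07 and 15.08 in the chemostat and 10.51, 11.58 and 11.39 in batch (3.80 ± 0.25), and EMI2, its close relative, rose by 2.76 ± 0.23. HXK2, the main hexokinase of fermenting cells and a carrier of the glucose signal, went the other way. It read 14.30, 14.02 and 14.03 in the chemostat and 14.99, 14.96 and 15.08 in batch, a difference of -0.89 ± 0.09 that was small beside the rise of HXK1.

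**Figure D3:**
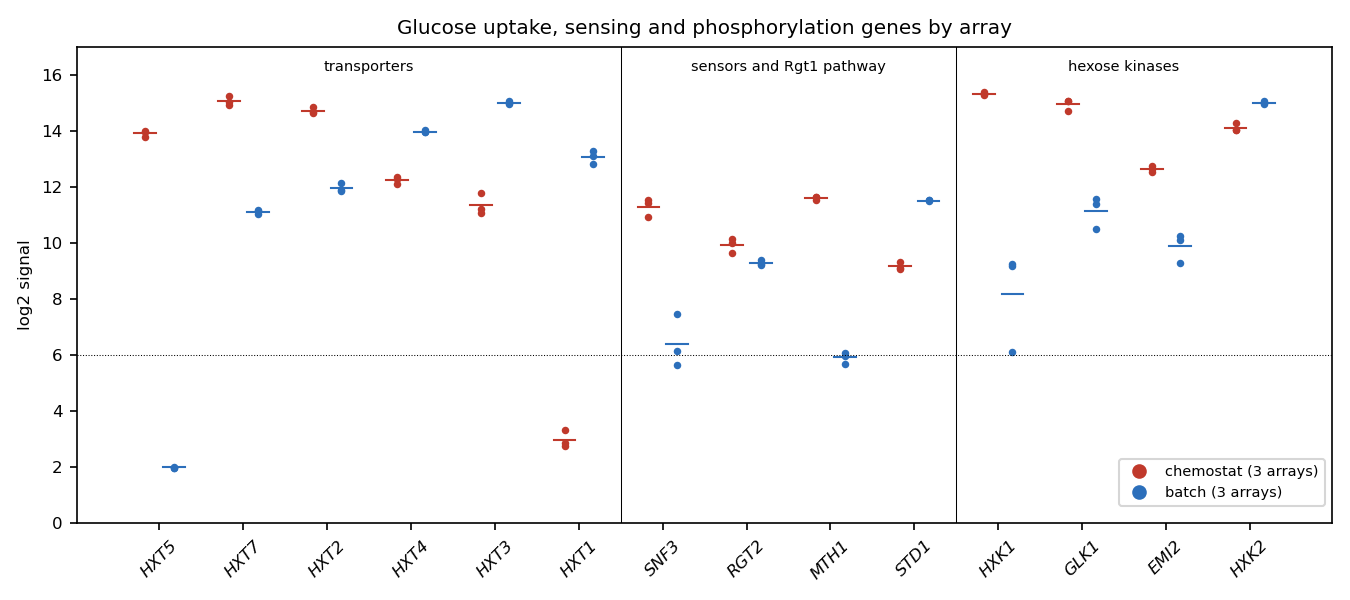
Log2 signal on each array for genes of glucose transport, sensing and phosphorylation, with the 3 chemostat arrays (red) left of the 3 batch arrays (blue), ticks at the means and a dotted line at 6. HXT5 and HXT1 lie near the floor in opposite cultures, and HXT2 and HXT4 are clearly parted between cultures although the 12-array fit does not call them.

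Among 18 genes of glucose repression and the Snf1 pathway 6 rose and 5 fell, shares of members close to the background, and the list median of 0.21 turned to -0.07 with a common array median. REG2, a targeting subunit of the phosphatase that opposes Snf1, read 11.81, 12.03 and 12.52 in the chemostat against 3.07, 3.34 and 4.40 in batch. SIP2 and GAL83, alternative beta subunits of the Snf1 complex, moved apart, by 4.73 ± 0.59 and -1.16 ± 0.20. The kinase gene SNF1 itself differed by -0.14 ± 0.17 and MIG1, the main repressor gene, by 0.12 ± 0.45, and neither was called. MIG3, a minor relative of MIG1, read 2.48, 3.74 and 3.35 in the chemostat and 7.42, 8.40 and 7.59 in batch. The repressor gene NRG2 rose by 3.26 ± 0.14. NRG1 read 13.04, 12.84 and 12.87 in the chemostat against 10.98, 11.02 and 11.23 in batch without being called (adjusted p = 0.051), and the 6 arrays alone gave 7.6e-05.

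The activators of respiratory and gluconeogenic genes rose in 10 of 13 cases, with 1 fall. The 4 rises of 7.26 and above all began under 6 in batch and are lower limits. SIP4, an activator of gluconeogenic genes, read 12.38, 12.33 and 12.30 in the chemostat and 2.03, 2.18 and 2.70 in batch, and CAT8, which turns on SIP4 and such genes, read 11.59, 11.65 and 11.63 against 2.88, 3.90 and 4.13. ADR1, the activator of ADH2 and of fatty acid use, and USV1 rose by 8.24 ± 0.30 and 7.26 ± 0.61. HAP4, the regulated subunit of the activator of respiratory genes, had a smaller rise of 1.74 ± 0.46, with 13.41, 13.38 and 13.43 in the chemostat and 11.85, 11.46 and 11.69 in batch. Its DNA-binding partners HAP2 and HAP5 differed by 0.12 ± 0.37 and -0.12 ± 0.82 and were not called. After quantile normalization HAP5 was called lower (-2.05, adjusted p = 0.0014). ERT1 fell by 1.38 ± 0.40, and on the 6 arrays alone that call was lost (adjusted p = 0.053).

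Glycolysis hardly moved at its main enzymes, and its minor isoenzymes and regulators did. Of 13 glycolytic genes 3 rose and 5 fell, with a median of -0.09 and most values between 14 and 16, near the top of the range. With a common array median 2 rose and 9 fell, and after cyclic loess 4 rose and 3 fell. PFK1 and PFK2, the phosphofructokinase subunits, differed by -0.54 ± 0.07 and -0.48 ± 0.07. The 3 rises were TDH1 (2.53 ± 0.11), PYK2 (1.25 ± 0.32) and ENO1 (0.44 ± 0.07), the last not called with a common array median (0.15, adjusted p = 0.21). PFK26, which makes the allosteric activator fructose-2,6-bisphosphate, read 12.08, 11.99 and 12.06 in the chemostat and 7.89, 8.11 and 8.67 in batch. FBP26, the phosphatase that removes the same signal, rose too, by 2.63 ± 0.22, as did the glycolytic gene activator TYE7 (2.66 ± 0.61).

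In the pentose phosphate pathway, which supplies NADPH and ribose, 4 genes rose and 5 fell of 14. The 4 that rose, TKL2, GND2, NQM1 and SOL4, are each a second copy of a pathway enzyme, and went up by 9.12 to 10.37 from batch values under 6. GND2 read 12.86, 13.75 and 13.22 in the chemostat and 3.74, 3.90 and 3.86 in batch. The main copies moved little, with GND1 at -0.32 ± 0.08 (adjusted p = 0.08 after cyclic loess) and TKL1 at -0.46 ± 0.06. ZWF1, the glucose-6-phosphate dehydrogenase at the pathway's entry, read 12.82, 13.21 and 12.88 in the chemostat and 13.58, 14.17 and 14.45 in batch. RPE1, an epimerase, and SHB17, which makes ribose phosphate without NADPH, differed by -1.30 ± 0.19 and -1.32 ± 0.09 and were called lower.

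Genes for the carrier that brings pyruvate into mitochondria changed by subunit, and the proteins were not measured. The mitochondrial pyruvate carrier pairs Mpc1 with Mpc2 in fermenting cells or with Mpc3 in respiring ones. MPC3 read 15.27, 15.08 and 15.24 in the chemostat and 9.17, 9.45 and 9.20 in batch, a 60.6-fold rise. MPC2 fell by 0.44 ± 0.09, with 14.34, 14.12 and 14.08 against 14.66, 14.62 and 14.57. MPC1, chosen after its values were seen, rose by 1.85 ± 0.24.

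Among genes of the pyruvate dehydrogenase complex those of its regulators changed, and most of those of its catalytic subunits were not called. Of 9 genes 4 rose and none fell, and the list median of 0.19 became -0.09 with a common array median. The kinase genes PKP1 and PKP2 rose by 2.11 ± 0.57 and 1.70 ± 0.09. The phosphatase gene PTC6 read 10.16, 10.68 and 10.70 in the chemostat and 7.18, 8.86 and 8.82 in batch. PDA1, PDB1, LAT1 and PDX1, the subunits of the complex, differed by 0.07 to 0.19 and were not called, while LPD1, shared with other complexes, rose by 0.42 ± 0.09, a call lost with that setting (0.14, adjusted p = 0.28). Malic enzyme, MAE1, which gives pyruvate within mitochondria, read 10.81, 11.60 and 10.96 in the chemostat and 13.88, 14.38 and 14.59 in batch.

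Of 32 mitochondrial carrier genes 11 rose and 14 fell, against 33.4% and 22.3% of all genes. Their median of 0.11 fell below 0 with a common array median (-0.175). SFC1 and CRC1, which bring in succinate and acylcarnitine, rose most (12.34 ± 0.11 and 7.17 ± 0.44). The oxodicarboxylate carriers moved apart, with ODC1 at 3.17 ± 0.18 and ODC2 at -0.58 ± 0.07. The ADP/ATP carriers differed by member. AAC1 read 12.48, 12.63 and 12.68 in the chemostat and 9.53, 9.35 and 9.85 in batch, whereas AAC3, the form known from anaerobic growth, read 5.11, 4.70 and 3.72 against 8.52, 9.07 and 9.33. PET9, the main form, differed by 0.17 ± 0.06, a call that turned to -0.12 with a common array median and was lost in the 12-array fit with the replicate block (adjusted p = 0.12). POR2, YMC2, TPC1 and OAC1 fell, with differences of -2.18 to -1.22.

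Of 16 TCA cycle genes 13 rose, with a median of 1.48 over the list, and IDH2 and IDP1 fell. CIT3, a mitochondrial citrate synthase, rose from the batch floor, and the 4 succinate dehydrogenase genes SDH1 to SDH4 rose, SDH1 by 2.17 ± 0.26, SDH2 by 2.27 ± 0.19, SDH3 by 1.52 ± 0.10 and SDH4 by 2.32 ± 0.12. In the respiratory chain complex III had 7 of 9 genes up with a median of 0.64 and complex IV 8 of 9 with 0.77, and in neither was a gene called at least 2-fold higher. All 16 genes of ATP synthase and its regulators rose, by 0.41 to 4.34 with a median of 0.82, and 5 of them at least 2-fold. The list of NADH dehydrogenases, cytochromes and related oxidoreductases had 8 of 10 genes up and a median of 2.07. GUT2, which oxidises glycerol 3-phosphate at the inner membrane, read 14.72, 15.02 and 14.98 in the chemostat and 8.81, 10.34 and 10.30 in batch. The main cytochrome c gene CYC1 differed by -0.01 ± 0.11, and CYC7, its second copy, rose by 6.35 ± 0.25.

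Genes of fatty acid oxidation and its shuttles rose almost as a whole. Of 17 genes 16 rose, with a median of 5.06, and FAT1, a fatty acid importer, fell by 0.73 ± 0.08. All 4 genes of the carnitine shuttle, which carries acetyl units from peroxisomes into mitochondria, rose. The acetyltransferase gene CAT2 read 14.17, 14.33 and 14.37 in the chemostat and 6.20, 6.10 and 7.09 in batch. The plasma membrane carnitine transporter gene AGP2 read 11.98, 11.38 and 11.67 against 4.10, 4.79 and 5.36. YAT1 gave the least certain rise (1.87 ± 0.63, adjusted p = 0.029), with batch arrays at 6.62, 8.64 and 9.38. Its call was lost on the 6 arrays alone (adjusted p = 0.091) and after quantile normalization (0.85, adjusted p = 0.13).

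Genes for the making of peroxisomes had smaller changes. Of 26 peroxisome biogenesis genes 19 rose and 1 fell, with a median of 1.17, against 33.4% of all genes rising. PEX28, PEX5, the import receptor, PEX15 and PEX29 rose by 1.69 to 2.61. PEX18, a coreceptor, read 5.95, 6.75 and 5.93 in the chemostat and 2.57, 2.81 and 2.51 in batch, mostly below 6, and was not called with values under 6 raised to 6 (adjusted p = 0.25). PEX31 fell by 0.69 ± 0.13. PEX13, INP2 and PEX4 differed by 0.12 to 0.23 and were not called.

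Reserve carbohydrate genes rose together. All 12 glycogen genes rose, by 1.61 to 10.69 with a median of 4.55, and all 12 at least 2-fold. GLC3, the branching enzyme, read 13.90, 13.96 and 14.00 in the chemostat and 8.08, 8.40 and 8.62 in batch (48.1-fold). GPH1, the phosphorylase that breaks glycogen down, read 13.71, 13.58 and 13.63 against 3.10, 2.83 and 2.93. GSY2, the main glycogen synthase, read 12.98, 13.06 and 13.06 against 6.84, 9.05 and 9.28. Genes of synthesis and of breakdown rose alike.

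In trehalose and UDP-glucose supply 8 of 10 genes rose and 1 fell. Both a trehalose synthase subunit, TPS2 (3.11 ± 0.17), and the trehalase genes NTH1 (1.88 ± 0.12) and NTH2 (3.20 ± 0.24) were among the rises. PGM2, the main phosphoglucomutase, read 13.38, 13.32 and 13.42 in the chemostat and 5.44, 5.96 and 7.03 in batch, while its twin PGM1 fell by 1.31 ± 0.19. Of 9 glycerol genes 3 rose and 3 fell, against 33.4% and 22.3% of all genes. GPP1, the glycerol-3-phosphatase of glycerol formation, read 12.52, 13.02 and 12.73 in the chemostat against 15.18, 15.50 and 15.49 in batch, 6.19-fold lower. GUT1, the glycerol kinase of glycerol use, rose by 3.05 ± 0.25, and GCY1, of an alternative glycerol route, by 4.56 ± 0.11.

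Genes for small proteins of respiratory growth and stationary phase rose in 20 of 20 cases, with a median of 6.92. The secreted protein gene YGP1 read 15.07, 15.21 and 15.15 in the chemostat and 5.30, 7.77 and 8.04 in batch. OM45 and OM14, of the outer mitochondrial membrane, rose by 6.18 ± 0.13 and 3.42 ± 0.11. Of 25 heat shock and chaperone genes 15 rose and 4 fell, and with a common array median 11 rose and 8 fell. The stress-induced Hsp70 gene SSA3 read 14.50, 14.96 and 14.46 against 8.72, 9.35 and 8.86, and the constitutive SSA2 fell by 0.84 ± 0.08. HSP30 and SSE2 rose by 10.71 ± 0.44 and 5.81 ± 0.54. The ribosome-bound chaperone genes SSB1 and SSB2 differed by -0.16 ± 0.05 and -0.26 ± 0.07, and the call of SSB1 was lost in the 12-array fit with the replicate block (adjusted p = 0.064). Cyclic loess ended both calls (adjusted p = 0.89 for SSB1 and 0.17 for SSB2).

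Of 24 oxidant defence genes 14 rose and 4 fell. GPX1, a glutathione peroxidase homologue, read 14.01, 13.82 and 13.65 in the chemostat and 6.0, 6.28 and 5.82 in batch, while its relative GPX2 fell by 1.26 ± 0.11. Cytosolic catalase CTT1 and the peroxiredoxin TSA2 rose by 8.01 ± 0.17 and 6.49 ± 0.35. The thioredoxin reductase gene TRR1 fell by 0.98 ± 0.12. Protein kinase A and its neighbours had 14 of 24 genes up and 1 down. The catalytic subunit genes moved apart, with TPK2 at 13.22, 13.14 and 13.39 in the chemostat against 11.29, 11.20 and 11.38 in batch, and TPK3 at 10.47, 10.32 and 10.56 against 11.97, 11.49 and 11.58. YAK1, a kinase that opposes growth, rose by 2.10 ± 0.30, and the Ras inhibitor genes IRA1 and IRA2 by 1.35 ± 0.19 and 1.47 ± 0.20. MSN4 differed by 0.01 ± 0.37 and was not called.

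Nitrogen genes changed by route rather than as a group. Of 13 genes of ammonium assimilation and its regulators 4 rose and 3 fell, near the background, and the median of 0.27 was -0.01 with a common array median. GDH3, a glutamate dehydrogenase of respiratory growth, read 9.80, 10.43 and 10.45 in the chemostat and 1.89, 2.42 and 3.18 in batch. GDH2, which runs the reaction toward ammonium, read 14.39, 14.35 and 14.37 against 10.92, 10.71 and 10.59. The main glutamate dehydrogenase gene GDH1 fell by 0.20 ± 0.06 and the glutamine synthetase gene GLN1 fell by 0.58 ± 0.10, and the call of GDH1 was lost in the 12-array fit with the replicate block (adjusted p = 0.061). The ammonium permease gene MEP3 fell by 1.80 ± 0.17, while MEP2 read 14.10, 14.12 and 14.11 against 14.02, 14.02 and 14.07 and was not called.

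Of 19 amino acid permease genes 6 rose and 10 fell. BAP2, a permease of branched-chain amino acids, read 12.60, 12.66 and 12.49 in the chemostat and 5.87, 6.61 and 7.32 in batch, and the proline permease gene PUT4 rose by 7.79 ± 0.62. DIP5, for acidic amino acids, read 3.26, 3.03 and 5.02 against 7.94, 8.84 and 8.65. GNP1, TAT2, MUP1, HIP1 and AGP1 fell, with differences of -2.09 to -1.02. The general permease gene GAP1 rose by 0.40 ± 0.10, and was not called with a common array median (0.11, adjusted p = 0.45) or after quantile normalization (0.20, adjusted p = 0.13).

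The Ehrlich pathway, which turns amino acids into fusel alcohols and acids, had 6 of 10 genes up and 2 down. ARO9, the inducible aromatic aminotransferase, read 12.67, 12.58 and 12.71 in the chemostat and 2.04, 2.02 and 2.90 in batch, whereas the constitutive ARO8 fell by 0.55 ± 0.14. ARO10, the decarboxylase, rose by 8.58 ± 0.68 and their activator ARO80 by 1.55 ± 0.33 (0.79 after quantile normalization, adjusted p = 0.075). The branched-chain aminotransferases moved apart. BAT2, of the cytosol, read 12.83, 13.11 and 13.04 in the chemostat and 10.78, 11.18 and 11.22 in batch, and BAT1, of mitochondria, read 13.55, 14.07 and 13.91 against 14.74, 14.84 and 14.84.

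Phosphate and metal uptake genes changed singly. In the phosphate list 5 of 20 rose and 4 fell, shares under or near the background. PHO89, a sodium-coupled phosphate transporter, read 12.69, 12.56 and 12.61 in the chemostat and 3.94, 5.22 and 5.50 in batch. The acid phosphatase gene PHO5 stayed near 2 in both cultures, and the low-affinity transporter genes PHO90 and PHO91 differed by -0.69 ± 0.21 and -1.21 ± 0.13, both called. Of 24 iron genes 9 rose and 4 fell, shares near the background of 33.4% and 22.3% of all genes. FRE4, a reductase, and SIT1, a siderophore transporter, rose by 6.87 ± 0.54 and 6.78 ± 0.45. FET4, the low-affinity iron transporter, read 2.34, 2.18 and 2.28 in the chemostat against 11.32, 11.00 and 10.74 in batch. The high-affinity pair FET3 and FTR1 fell, with differences of -1.50 ± 0.11 and -0.75 ± 0.07. CTR3, a copper transporter, read 13.89, 13.89 and 14.04 against 11.46, 10.88 and 10.88, and the zinc transporter genes ZRT1 and ZRT2 differed by -1.05 ± 0.27 and -1.53 ± 0.14. The list medians of phosphate (0.07), iron (0.25) and zinc and copper (0.15) all fell below 0 with a common array median.

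In lipid synthesis genes of the first steps rose and those of chain elongation fell. Of 13 fatty acid genes 7 rose and 4 fell. ACC1, FAS1 and FAS2, which make fatty acids, rose by 0.65 to 0.79, and the desaturase gene OLE1 read 15.10, 14.97 and 14.96 in the chemostat and 14.01, 13.80 and 13.72 in batch. The elongase genes ELO1, ELO2 and ELO3 fell, with differences of -1.16 to -0.89. MGA2, an activator of OLE1, rose by 2.75 ± 0.13. Of 21 phospholipid genes 6 rose and 7 fell, and the list median of 0.07 was -0.22 with a common array median. INO1, which makes inositol phosphate, read 14.67, 14.76 and 14.78 in the chemostat against 5.20, 6.08 and 7.08 in batch. Triacylglycerol synthesis moved apart, with DGA1 at 1.15 ± 0.15 and LRO1 at -2.38 ± 0.32. Of 27 ergosterol genes 16 rose and 4 fell, with a median of 0.33. With a common array median 9 rose and 6 fell, and the list median was 0.04. The sterol regulators UPC2 and ECM22 rose by 3.46 ± 0.16 and 1.51 ± 0.18. The pathway enzymes ERG5, HMG1 and ERG3 rose by 0.84 to 1.08, and the sterol esterification gene ARE1 fell by 2.24 ± 0.54.

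Building-block synthesis fell. Of 61 amino acid biosynthesis genes 6 rose and 41 fell, a median of -0.48, against 22.3% of all genes falling. THR1, homoserine kinase, read 11.27, 12.64 and 12.21 in the chemostat and 13.78, 14.39 and 14.52 in batch. SER2, LEU9, ILV6 and ARO7 fell, with differences of -2.06 to -1.49. GCN4, the activator of the whole group, rose by 0.52 ± 0.07, a call lost with a common array median (0.23, adjusted p = 0.084). In sulfate assimilation 5 rose and 13 fell of 26, with MET8, the enzyme of the siroheme cofactor, at 5.07, 6.58 and 6.30 against 10.35, 10.84 and 10.95. CYS3 and SAM1 differed by -2.11 ± 0.22 and -1.71 ± 0.13, while SUL1, a sulfate permease, rose by 1.30 ± 0.08.

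One-carbon genes fell in 8 of 12 cases, with a single rise, that of the formate dehydrogenase gene FDH1. SHM2, the cytosolic serine hydroxymethyltransferase, read 14.06, 14.10 and 13.99 in the chemostat and 15.20, 15.19 and 15.07 in batch. Purine synthesis had 16 of 23 genes down. The IMP dehydrogenase gene IMD4 read 10.29, 10.92 and 10.94 against 13.48, 13.62 and 13.32, and ADE4, the first committed enzyme, fell by 1.55 ± 0.13. The 1 rise of that list was PHO2, a regulator shared with phosphate genes (0.44 ± 0.15), which was -0.18 after quantile normalization and had an adjusted p of 0.069 with the replicate block. Of 15 pyrimidine and ribonucleotide reductase genes 8 fell and 4 rose. URA1 read 12.76, 12.75 and 12.78 in the chemostat and 14.22, 14.18 and 14.02 in batch. The salvage genes FUR1 and FUR4 differed by -2.39 ± 0.27 and -0.85 ± 0.17. The ribonucleotide reductase genes RNR2, RNR3 and RNR4 rose by 0.79 to 2.75, and URA10, the minor copy of URA5, rose by 5.45 ± 0.30.

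The translation machinery fell broadly and by small amounts. Of 127 cytosolic ribosomal protein genes 97 fell and none rose, with a median of -0.30. Their median levels were 15.01 in the chemostat and 15.37 in batch, near the top of the range. The number called lower depended on the scaling, with 126 for a common array median, 78 after quantile normalization, and 56 after cyclic loess (1 higher, median -0.17). RPS7B, the largest fall, read 12.92, 13.13 and 13.24 in the chemostat and 14.33, 14.39 and 14.42 in batch. All 19 cytosolic aminoacyl-tRNA synthetase genes fell, with differences of -1.92 to -0.26, headed by the lysine enzyme KRS1. Of 34 translation factor genes 29 fell. TEF4, an elongation factor subunit, read 13.01, 13.09 and 13.12 against 14.79, 14.94 and 14.74. HCR1, GCN3, TIF5 and TIF4631, all of initiation, fell, with differences of -1.43 to -1.13, while TEF2 and EFT2, the elongation factors themselves, differed by 0.06 ± 0.05 and -0.06 ± 0.06 and were not called. These last probe sets may also read their twin genes.

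Genes of ribosome assembly and its polymerases had larger median falls than the ribosomal protein genes, but their median levels were lower. Of 49 nucleolar assembly genes 33 fell and none rose, with a median of -0.91, and 47 fell when the YSBN2 batch array that stands apart was left out. BUD23, a methyltransferase of ribosomal RNA, read 6.39, 8.58 and 7.82 in the chemostat and 9.68, 10.32 and 10.24 in batch. HAS1 and ENP1 differed by -1.46 ± 0.35 and -1.59 ± 0.50, the call of ENP1 being lost in the 12-array fit with the replicate block (adjusted p = 0.055) but not in the 6-array one (0.00088). Of 21 genes of RNA polymerases I and III 15 fell, with a median of -0.92. RPA14 read 9.48, 9.71 and 9.60 in the chemostat against 12.26, 12.49 and 12.43 in batch. The 1 rise was MAF1, the repressor of RNA polymerase III, at 12.02, 11.73 and 11.89 against 10.63, 10.42 and 10.40.

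Mitochondrial ribosome genes were mostly not called, and import genes more often fell. Of 43 mitochondrial ribosomal protein genes 7 rose, 4 fell and 32 were not called, with a median of 0.06. With a common array median none rose and 14 fell (median -0.22), and after quantile normalization 3 rose and 12 fell. Of 32 import and mitochondrial chaperone genes 17 fell and 3 rose. TIM44, the anchor of the import motor, read 11.39, 12.20 and 11.89 in the chemostat and 12.53, 13.20 and 13.20 in batch. MAS2, of the presequence protease, fell by 1.33 ± 0.37, and TIM21 rose by 0.62 ± 0.13. HSP60, HSP10 and SSC1, the matrix chaperones, differed by -0.07 to 0.05 and were not called.

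Autophagy genes rose in 29 of 32 cases, with none lower, a median of 2.06 and 33.4% of all genes as the background. ATG39, a receptor for autophagy of the nuclear envelope, read 13.26, 12.95 and 13.27 in the chemostat and 2.81, 2.45 and 2.54 in batch. ATG34 and ATG36, receptors for vacuolar mannosidase and for peroxisomes, rose by 5.74 ± 0.42 and 5.44 ± 0.48. ATG8 and ATG1, core genes of the process, were chosen after their values were seen. ATG8, which coats the forming membrane, read 13.15, 13.32 and 13.25 against 10.01, 9.74 and 9.58, and the kinase gene ATG1 rose by 3.02 ± 0.21. ATG18, ATG16 and ATG27 were not called, with ATG18 at -0.67 ± 0.44. ATG18 was called lower after quantile normalization (-1.28, adjusted p = 0.019) and cyclic loess (-1.06, adjusted p = 0.035). The replicate block over the 6 arrays also called it lower (adjusted p = 0.0085). Of 11 vacuolar protease genes 9 rose, with PRB1 and PEP4 up by 2.13 ± 0.17 and 1.11 ± 0.05. Of 33 proteasome genes 12 rose, close to the background, with 18 when the outlying YSBN2 batch array was left out. With a common array median 3 rose and 4 fell, and the list median of 0.20 turned to -0.08. Their activator gene RPN4 read 13.59, 13.85 and 13.87 against 12.49, 12.49 and 12.28.

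Cell cycle genes were split. Of 16 cyclins and regulators 3 rose and 7 fell. The G1 cyclins moved apart, CLN1 with 11.67, 11.55 and 11.88 in the chemostat against 9.89, 9.79 and 10.08 in batch, and CLN3 with 9.06, 9.38 and 9.45 against 10.71, 10.92 and 10.89. CLN2 fell by 1.48 ± 0.45. The B-type cyclins CLB2 and CLB6 differed by -1.53 ± 0.21 and -2.01 ± 0.30. WHI5, a repressor of the G1 transition, read 2.53, 2.67 and 2.57 in the chemostat and 2.88, 5.39 and 7.20 in batch, and its call was lost with values under 6 raised to 6 (adjusted p = 0.25). Of 13 replication genes MCM4 and MCM5 rose, by 0.46 ± 0.09 and 0.33 ± 0.07, and the other 11 were not called. Both calls were lost with a common array median (adjusted p = 0.14 and 0.63), where 6 of the 13 fell and none rose, and after quantile normalization (adjusted p = 0.085 and 0.66), where 5 fell.

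Cell wall genes rose in 13 of 27 cases and fell in 4, and the list median of 0.17 was -0.11 with a common array median. TIP1, a mannoprotein, read 15.40, 15.54 and 15.60 in the chemostat and 5.32, 8.50 and 9.07 in batch. PIR3 read 12.02, 12.50 and 11.99 against 3.97, 5.56 and 5.56. The alternative glucan synthase gene GSC2 rose by 4.22 ± 0.19, while FKS1, the main one, fell by 0.32 ± 0.07. SED1 rose by 2.70 ± 0.19.

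Mating genes were mostly not called in the 12-array fit. Of 7 genes specific to a cells 1 rose and 1 fell in it, whereas on the 6 arrays alone 2 rose and 4 fell. The rise in the 12-array fit was that of ASG7, by 2.22 ± 0.54, which was -0.04 after quantile normalization. BAR1, the protease that cuts alpha factor, read 10.52, 10.93 and 11.58 in the chemostat and 12.74, 12.85 and 12.87 in batch. STE2 lay lower on every chemostat array, as given above, but was not called over 12 arrays (adjusted p = 0.1), whereas the 6 arrays alone gave 0.00028. STE3, the pheromone receptor gene of alpha cells, read 8.81, 9.14 and 9.78 in the chemostat and 3.35, 4.39 and 5.07 in batch. SAG1, the agglutinin gene of alpha cells, read 8.92, 8.94 and 9.42 against 5.80, 7.72 and 8.28 (1.83 ± 0.54, adjusted p = 0.016), and was not called after quantile normalization (0.24, adjusted p = 0.51) or on the 6 arrays alone (adjusted p = 0.06). HO, the switching endonuclease, read 11.46, 11.78 and 11.59 against 12.62, 12.55 and 12.46, a difference of -0.93 ± 0.10.

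Pairs of related enzymes and transporters were set side by side to describe whether a change took 1 copy or both. In 45 pairs measured, with as a rule the minor copy or the member known from glucose-poor growth named first, the first-named gene rose in 34 and the second-named fell in 21. Over all genes 33.4% rose and 22.3% fell. In 16 pairs the first rose and the second fell, in 11 both rose, and in none did both fall. The pairs were chosen with earlier results known, so the counts describe them and test nothing. HXK1 and HXK2, TKL2 and TKL1, GPX1 and GPX2, PGM2 and PGM1, MPC3 and MPC2, ODC1 and ODC2, SSA3 and SSA2, BAT2 and BAT1, and GDH3 and GDH1 are among the 16. In 4 pairs the second-named gene rose and the first was not called, namely CIT1 with CIT2, PYC2 with PYC1, TSL1 with TPS3 and COX5A with COX5B, of which the rise of PYC2 was not called with a common array median (0.016, adjusted p = 0.91). On the 6 arrays alone CIT2 was called lower (adjusted p = 0.016) and TPS3 higher (adjusted p = 0.02). COX5A rose by 0.77 ± 0.12 while COX5B, the form of low oxygen, differed by 0.53 ± 0.36 and was not called.

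**Figure D4:**
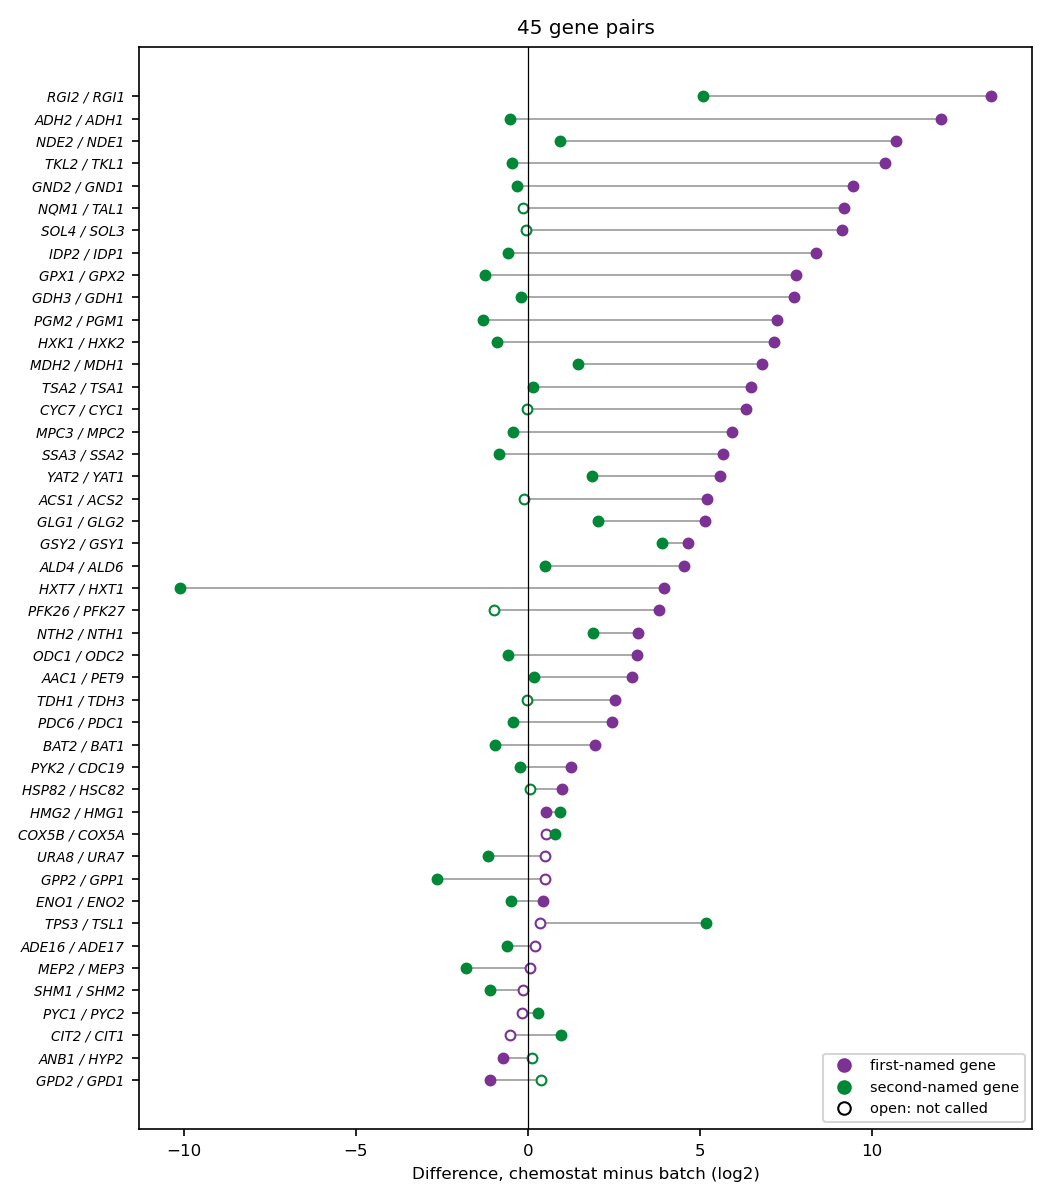
Difference between chemostat and batch (log2) for both members of 45 gene pairs, the first-named gene in purple and the second-named in green, with filled points called and open points not called. The first-named genes spread up to 13.47 (RGI2), while most second-named genes lie between -1.31 and 1.44, apart from HXT1 at -10.11, GPP1 and MEP3 below and GSY1, GLG2, NTH1, TSL1, RGI1 and YAT1 above.

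**Figure D5:**
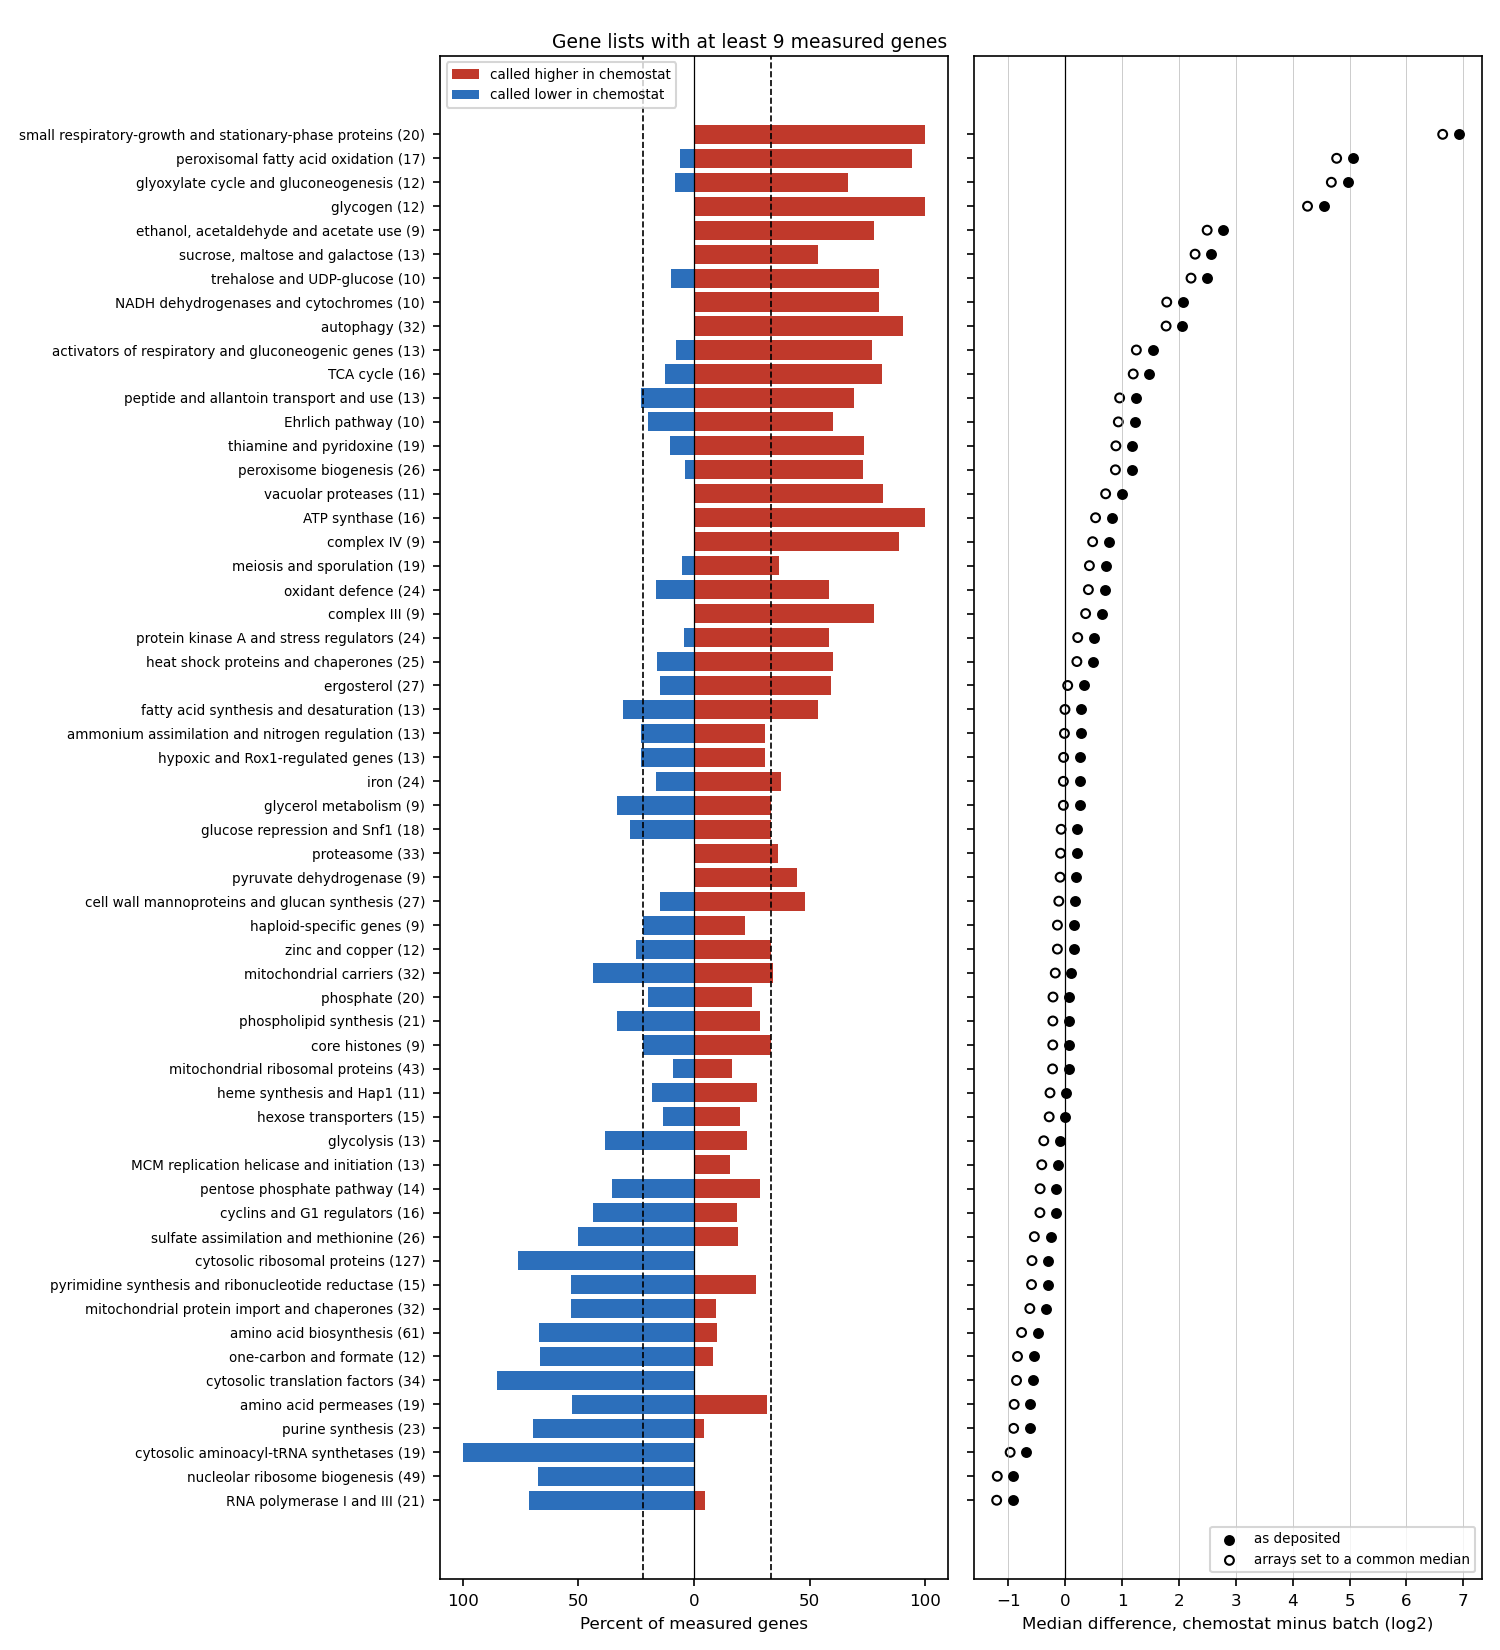
Lists with at least 9 measured genes are shown. Left, percent of the measured genes of each list (number in brackets) called higher (red, right of 0) or lower (blue, left of 0) in the chemostat, with dashed lines at 33.4% and 22.3%, the shares over all 5449 genes. Right, median difference of each list (log2) with values as deposited (filled) and with arrays set to a common median (open); lists with a median between 0.00 and 0.28 turn to the other side of 0 with that setting.

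The plot of lists places them between 2 ends. Respiratory-growth proteins, fatty acid oxidation, gluconeogenesis and glycogen stand at the top, with medians of 4.55 to 6.92. RNA polymerases I and III, ribosome assembly and aminoacyl-tRNA synthetases stand at the bottom, with medians of -0.92 to -0.68. Lists under 9 genes are not plotted. Of these, uptake of organic acids and glycerol (9.59) and the carnitine shuttle (6.25) also lay high, and genes of a cells (-0.77) low. The medians of the upper lists lie further from 0 than those of the lower lists.

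The same contrast in YSBN2 was used to see where the CEN.PK 113-7D change stands apart. The difference of the effects exceeded 2-fold on 116 probe sets (2.03%), by a limma test against that minimum with an adjusted p under 0.05. On 87 of them CEN.PK 113-7D rose and its difference was above that of YSBN2, as for GPH1, with 10.69 ± 0.15 in CEN.PK 113-7D and 3.28 ± 0.15 in YSBN2. With the third YSBN2 batch array left out the count was 162.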

How the data were processed

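The values are the authors' deposited log2 signals per probe set from Affymetrix yeast arrays hybridised with biotin-labelled RNA. The log base is not stated in the sources used here, and the values, from 1.69 to 16.2, were read as log2. R 2.6, affy and RMA are named in the submitters' processing notes, with no role or order, and array medians are not equal. Neither background correction nor scaling is described in those notes. All 5716 probe sets were kept. Of these 5498 carry 1 gene symbol and 218 none, by GEO's platform annotation updated through RefSeq gene IDs, for 5449 genes. A gene is given by its brightest probe set, and 47 genes have several. Probe sets with the suffix s_at or x_at may read near-identical genes.

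Differences were fitted with limma 3.58.1 in R 4.3.3, with 1 mean per strain and culture over 12 arrays (8 residual and 1.34 prior degrees of freedom) and Benjamini-Hochberg adjustment over all probe sets, and called at an adjusted p under 0.05. All adjusted p-values come from these fits or their named alternatives. The strain difference used limma's treat with a 2-fold minimum. On simulated data with independent normal noise and 50 probe sets changed at each size, 4.6% of the calls of this fit were false. It called 42% of the changes of 0.5 and 64% of those of 1. Far more probe sets were called in the real data, so these shares need not hold there. The number of arrays limits the precision. P-values set a difference against the spread between replicate cultures, which the main fit pools over all 12 arrays, those of YSBN2 included.

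Named genes are the 12 largest called changes per direction without overlap, the 12 largest with means of 8 or above in both cultures, members of the gene lists (up to 5 called per direction and 3 with small differences where a list holds over 20), members of 45 pairs, and mating type markers. Members, lists, pairs and rules were chosen with earlier results of these data known. Lists are described by counts and medians, with no test. The deviations of same-numbered chemostat and batch arrays from their group means correlated at 0.5, 0.28 and 0.31. Chemostat array 2 correlated with batch array 3 at 0.3, and chemostat array 3 with batch array 2 at 0.14. Numbers 2 and 3 are thus not clearly told apart as pairs. The numbers were treated as a possible pairing, from the data and not from the labels. Only the replicate block used it, and the main fit did not. Alternatives covered array scaling, a floor at 6, filters on dim probe sets, variance models, the replicate block, the 6 arrays alone and each array left out. Promoter motifs and sequences were not analysed here.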

Additional observations from a re-analysis of the deposited data

Results flagged for a closer look

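The genes below were picked out because the chemostat effect, chemostat minus batch, differed between CEN.PK 113-7D and YSBN2 by more than 2-fold (limma's test against that minimum, adjusted p under 0.05, 3 arrays per group). Over all probe sets 2.03% met this rule, the background for the counts below. All values are CEN.PK 113-7D effect minus YSBN2 effect in log2, and no explanation was tested. Where a gene lies near the floor in either culture, as FDH1 does in CEN.PK 113-7D batch (2.12 to 2.13), its effect is a lower limit. The size of the strain difference is then not exact. The YSBN2 batch array of replicate 3 stands apart from its partners, and each of these calls but 3 was also made without it.

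Among genes of reserves and sugars, the effects differed for 2 of 12 glycogen genes, 1 of 10 of trehalose and UDP-glucose, and 2 of 13 of sucrose, maltose and galactose. GPH1 differed by 7.41 ± 0.21, with effects of 10.69 in CEN.PK 113-7D and 3.28 in YSBN2. PGM2 differed by 5.25, GLC3 by 3.16, SOL4 by 6.78, GLK1 by 3.00, GSC2 by 3.12, MAL11 by 5.03 and MAL32 by 2.52. TDH1 differed by 2.97, with effects of 2.53 in CEN.PK 113-7D and -0.44 in YSBN2. HXK1 differed by 5.25 (adjusted p = 0.047, and 0.082 without that array).

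Of 25 heat shock and chaperone genes 5 differed, against 2.03% of all probe sets. Complexes III and IV had none among 9 genes each, too few to read at that share. HSP12 differed by 3.86 ± 0.12, HSP30 by 6.09, SSA3 by 4.33, SSE2 by 4.66 and CTT1 by 2.92. The autophagy receptor gene ATG39 differed by 6.69, CYC7 by 5.46, MSC1 by 2.85, OM45 by 1.93, AGP2 by 4.44 and FDH1 by 2.23. ETR1 differed by 3.86 (adjusted p = 0.033, and 0.056 without that array).

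Of 19 amino acid permease genes 4 differed, and 3 of 10 Ehrlich pathway genes. BAT2 had effects of 1.94 in CEN.PK 113-7D and -1.29 in YSBN2, a difference of 3.23. GNP1 and TAT2 fell in both strains and less in CEN.PK 113-7D, with differences of 5.43 and 4.32. OPT2 also fell in both and less in CEN.PK 113-7D, with effects of -6.67 in CEN.PK 113-7D and -11.40 in YSBN2, a difference of 4.73. PUT4 differed by 7.25, DUR3 by 7.38, ARO10 by 6.54, PUT1 by 5.82 and GDH3 by 3.17. Lower in CEN.PK 113-7D were COS12 (-5.04), SST2 (-4.35) and YDL241W (-3.46), the last with an adjusted p of 0.033, and 0.061 without that array.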

How the results depend on the processing

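Which direction dominates rested on the scaling. With a common array median 1452 probe sets were called higher and 2143 lower, and after quantile normalization 1313 higher and 2160 lower, against 1936 higher and 1271 lower as deposited. Cyclic loess gave 1749 and 1507. Without the 25% dimmest probe sets 968 were called at least 2-fold, against 1553 of all. Without the 50% dimmest 1790 were called, 892 of them higher, and 506 at least 2-fold. Fewer probe sets were tested in these settings. A limma test against a minimum of 1.5-fold called 1317, with 990 higher and 327 lower. Leaving out each of the 6 arrays in turn gave 2782 to 2972 calls, 1660 to 1830 higher, 1079 to 1162 lower and 1473 to 1534 at least 2-fold. Without YSBN2 batch replicate 3, a setting chosen after seeing the data, 3622 were called, of which 3197 are shared with the 3207. With the replicate number as a block 3162 were called over 12 arrays and 3736 over the 6, and the pairing moved no count of calls by over 1.5 times. Under the block over 12 arrays the calls of SSB1, GDH1, ENP1, PET9, PHO2 and RGT2 were lost, and no call was gained among the 304 named genes. The count of probe sets on which the strains differ was 46 without the 25% dimmest and 882 with no minimum difference, against 116.

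Of 66 gene lists, the direction with more calls turned in 12 with a common array median, 8 after quantile normalization and 3 after cyclic loess, and a count in either direction moved by over 1.5 times in 26, 29 and 14. With a common array median the 12 were hexose transporters, glucose repression, ammonium assimilation, phosphate, zinc and copper, hypoxic, heme, proteasome, histone, replication, cell wall and mitochondrial ribosomal protein genes.

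Of the named genes 19 lost their call without at least 1 array, with adjusted p of 0.05 to 0.15, namely CLN2, DAL1, ENP1, GDH1, HEM2, IDH2, IME1, PET9, PHO2, PHO90, PYC2, RGT2, SAG1, SSB1, TIR2, TOS6, TPC1, WHI5 and YAT1. Without batch replicate 1 YAT1 rose by 1.07, against 1.87 with it, and without chemostat replicate 1 TPC1 differed by -0.68, against -1.28. Signs turned for PET9 (-0.12), ATG27 (-0.24) and TEF2 (-0.22) with a common array median. After quantile normalization they turned for ASG7 (-0.042), COX5B (-1.82), PEX4 (-0.87), PHO2 (-0.18) and RGT2 (-0.077). DAL1 differed by 0.0 with values under 6 raised to 6. Another scaling ended the calls of ARO80, ENO1, GAP1, GCN4, GDH1, GND1, IDH2, IME1, LPD1, MCM4, MCM5, PHO2, PYC2, RGT2, SAG1, SSB1, SSB2 and YAT1. The cause of these changes was not tested. Probe sets with values under 6 limit the size of a change, and 3 arrays per culture limit the precision.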

Other observations

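Genes for sugars other than glucose, for thiamine, for low oxygen and for other nitrogen sources add to the account above. Of 13 genes for sucrose, maltose and galactose 7 rose and none fell, against 33.4% and 22.3% of all genes. The invertase gene SUC2 read 13.98, 14.00 and 14.12 in the chemostat and 10.92, 11.28 and 11.48 in batch. The maltose permease gene MAL31 read 12.38, 12.22 and 12.63 against 6.12, 6.40 and 5.92, and MAL11, a second such permease gene, 11.59, 11.58 and 11.71 against 2.44, 2.56 and 2.54. Neither set of arrays overlapped. MAL32, the maltase gene, rose by 8.43 ± 0.22, and its probe set may also read a near-identical copy. Of 19 thiamine and pyridoxine genes 14 rose and 2 fell. THI4, of thiazole synthesis, read 11.16, 11.37 and 11.11 in the chemostat and 8.44, 8.63 and 8.42 in batch, while THI80, the thiamine pyrophosphokinase, and TPN1, a pyridoxine transporter, fell by 0.94 ± 0.24 and 0.98 ± 0.12.

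Of 13 hypoxic genes 4 rose and 3 fell, and of 11 heme genes 3 rose and 2 fell. These shares are near the background of 33.4% and 22.3% of all genes. With a common array median 3 hypoxic genes rose and 4 fell, and 2 heme genes rose and 3 fell. HAP1, the heme-dependent activator, read 12.70, 13.01 and 12.71 in the chemostat and 10.00, 10.26 and 10.46 in batch. HEM14, of heme synthesis, rose by 1.21 ± 0.10 and HEM2 fell by 0.36 ± 0.12. TIR4, a mannoprotein gene of anaerobic cells, rose by 4.59 ± 1.08, while TIR2, of the same family, fell by 1.73 ± 0.53, a call lost on the 6 arrays alone (adjusted p = 0.065).

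Of 13 genes for peptides, allantoin, proline and GABA 9 rose and 3 fell. DUR3, the urea transporter, read 10.02, 9.63 and 9.45 in the chemostat and 2.35, 4.33 and 3.24 in batch. PUT1, the proline oxidase, rose by 3.41 ± 0.29 and UGA1, the GABA transaminase, by 1.59 ± 0.10. The falls were those of OPT1 (-6.95 ± 0.64), OPT2 (-6.67 ± 0.20) and DAL1, the allantoinase gene, which lay under 6 on all 6 arrays. Of 19 meiosis and sporulation genes 7 were called higher, most of them from values under 6 in both cultures. With values under 6 raised to 6 only 2 were called higher. After quantile normalization 4 were called higher and 6 lower. NDT80, the activator of middle meiotic genes, read 6.70, 6.84 and 7.23 in the chemostat and 2.20, 2.27 and 2.27 in batch. IME1, the entry regulator, rose by 1.54 ± 0.46, but by only 0.0093 after quantile normalization (adjusted p = 0.99) and 0.85 after cyclic loess (adjusted p = 0.069). SPS4 fell by 3.80 ± 0.29. Of the 218 probe sets with no gene name 107 (49.1%) were called higher and 35 (16.1%) lower, against 33.9% and 22.2% of all probe sets.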
